A study of Bos taurus with 22 samples.

Results

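The transcripts of ITGA2B, GP9 and TMCC2 were examined in RNA from peripheral white blood cells of 22 heifers. The 3 genes were chosen as possible traces of platelets and red cells in a white cell preparation, out of 27607 genes in the count table and 13535 genes with enough counts to be tested. They were selected from the genes with the lowest p-values of the comparison between Sub-Fertile and Fertile heifers, so their values in that comparison are given as a description with no test. All 3 genes passed the filter on low counts, which kept genes with a CPM (the count of a gene scaled to the total count of its library) above 1 in at least 5 heifers.

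The study asked whether transcript abundance in blood taken at the first artificial insemination differed with the later fertility of the heifer. Sub-Fertile Holstein heifers (n = 5) had needed 4 or more inseminations, and Sub-Fertile Angus heifers (n = 7) had not conceived after 2 inseminations and exposure to a bull. Fertile heifers (n = 5 Holstein, n = 5 Angus) had calved from their first insemination. All were purebred, and all had been synchronised for oestrus with a progesterone insert, kept for 5 days in Holstein heifers and 7 days in Angus heifers, and they averaged 12 months of age in Holstein and 14 months in Angus. Breed therefore could not be told apart from age, synchronisation and the rule for calling a heifer Sub-Fertile. Each library came from 1 heifer, named here by its number (1 to 5 Holstein Sub-Fertile, 6 to 10 Holstein Fertile, 11 to 17 Angus Sub-Fertile, 18 to 22 Angus Fertile).

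Platelets are fragments of megakaryocytes that carry messenger RNA but no nucleus, and they settle partly with the white cells when blood is centrifuged. ITGA2B encodes integrin alpha-IIb (CD41), which pairs with integrin beta-3 as the fibrinogen receptor through which platelets aggregate. GP9 encodes glycoprotein IX, a small subunit of the receptor complex that binds von Willebrand factor on platelets. TMCC2, transmembrane and coiled-coil domain family member 2, encodes a membrane protein whose transcript is abundant in maturing red cells in humans. Young red cells (reticulocytes) keep some messenger RNA, and here mature red cells had been removed from the buffy coat with an ammonium chloride lysis buffer.

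Total counts ranged from 12182400 to 49228035 per library, with a median of 23158374. Gene names could be paired with the identifiers of 1229 genes, all among the 1658 genes with the lowest fertility p-values, so that 10 of the 156 platelet, red cell, white cell and housekeeping genes listed for this work had a name. The defining platelet genes PF4, PPBP, ITGB3 and TUBB1 and the defining red cell genes HBB, HBA, ALAS2 and SLC4A1 were not analysed here for that reason. Whether the counts of ITGA2B, GP9 and TMCC2 came from platelets and red cells was accordingly not tested, and the genes are called by their symbols below. Of the 28 listed white cell markers, 4 had a name, and the defining genes CD3E, CD79A, CD14 and PTPRC were likewise not analysed. CSF3R, the receptor for granulocyte colony-stimulating factor on neutrophils, averaged 283 ± 93.8 CPM (SD, n = 22) and had a lowest value of 113 CPM. The neutrophil granule gene MMP9 averaged 2.13 CPM. The white cell label could thus be set beside few genes only.

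Of the 231 pairings of heifers, 8 stood apart as close pairs. Their biological coefficient of variation over 7746 genes, the spread between libraries beyond counting noise, was 0.0377 to 0.0828, against 0.098 to 0.26 in the other 223 pairings. Heifer 1 was paired with heifer 11, and the others were 5 with 6, 16 with 7, 12 with 8, 10 with 18, 13 with 22, 14 with 20 and 15 with 19. Of these 8 pairs, 4 joined the breeds, 6 joined a Sub-Fertile with a Fertile heifer and 0 lay within 1 of the 4 groups. No pair of columns held identical counts, and nothing in the labels said what paired heifers shared. Results are therefore given with and without this pairing.

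ITGA2B (ENSBTAG00000008165) lies on chromosome 19 at 44172212 to 44185276 of ARS-UCD1.2 and is protein coding. GP9 (ENSBTAG00000014666) lies on chromosome 22 at 59021081 to 59021623, and TMCC2 (ENSBTAG00000002361) on chromosome 16 at 3006671 to 3044514, also as protein-coding genes. In the RefSeq annotation of the later assembly ARS-UCD2.0, an uncharacterised locus overlapped ITGA2B and another overlapped TMCC2. The libraries were stranded, but no source used here states whether the counting used strand, so reads of an overlapping locus may be included in both genes.

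ITGA2B was the most abundant of the 3 genes, with a mean of 44.7 CPM over all heifers (range 32.5 to 69.2), which placed it at rank 5145 of the 13535 genes. TMCC2 averaged 8.40 CPM (2.42 to 18.4, rank 9832) and GP9 averaged 2.42 CPM (0.622 to 5.91, rank 11881). Divided by annotated transcript length, the mean levels were 13.2 CPM per kilobase for ITGA2B, 4.46 for GP9 and 2.33 for TMCC2. Per length, GP9 thus exceeded TMCC2, because its annotated transcript has 543 bases against 3610 for TMCC2 and 3385 for ITGA2B. This order rests on the annotated lengths, and whether they are complete was not tested. All 3 genes were detected in every heifer. GP9 rested on 13 to 191 counts per library and TMCC2 on 65 to 700.

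The biological coefficient of variation was 20% for ITGA2B, 49.9% for GP9 and 42.6% for TMCC2, against a median of 15.5% over all genes tested. GP9 and TMCC2 varied more than 96.1% and 94.0% of all genes, and ITGA2B more than 65.6%. The highest level was 2.13 times the lowest for ITGA2B, 9.50 times for GP9 and 7.59 times for TMCC2.

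ITGA2B measured 39.7, 42.7, 45.6, 32.8 and 43.1 CPM in Holstein Sub-Fertile heifers 1 to 5, against 36.0, 46.2, 35.3, 69.2 and 57.8 CPM in Holstein Fertile heifers 6 to 10. In Angus it had a lowest value of 32.7, a median of 42.0 and a highest value of 48.4 CPM in the 7 Sub-Fertile heifers, against 56.1, 43.7, 54.7, 62.9 and 32.5 CPM in Fertile heifers 18 to 22. The Sub-Fertile heifers lay in a narrow band, whereas the Fertile heifers spread above and across it. All 12 Sub-Fertile heifers were below the Fertile median, and 5 of the 10 Fertile heifers (9, 10, 18, 20 and 21) exceeded every Sub-Fertile heifer. No Sub-Fertile heifer was below every Fertile heifer, since Angus Fertile heifer 22 had the lowest value of all. The mean was 40.7 ± 5.59 CPM in Sub-Fertile heifers (SD, n = 12) and 49.4 ± 12.6 CPM in Fertile heifers (SD, n = 10). The 4 groups were ordered Angus Fertile (49.97 ± 11.9), Holstein Fertile (48.9 ± 14.6), Holstein Sub-Fertile (40.8 ± 4.92) and Angus Sub-Fertile (40.6 ± 6.41). Neighbours in this order differed by less than 1 SD of either group, except that the step from the Holstein Fertile to the Holstein Sub-Fertile group exceeded the SD of the Holstein Sub-Fertile heifers.

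GP9 measured 1.48, 4.51, 1.25, 0.988 and 2.05 CPM in Holstein Sub-Fertile heifers 1 to 5, against 1.46, 2.74, 2.99, 3.85 and 4.41 CPM in Holstein Fertile heifers 6 to 10. In Angus it had a lowest value of 0.982, a median of 1.67 and a highest value of 2.79 CPM in Sub-Fertile heifers, against 3.81, 1.60, 3.07, 5.91 and 0.622 CPM in Fertile heifers 18 to 22. Holstein Sub-Fertile heifer 2 stood above the other Sub-Fertile heifers and above every Holstein Fertile heifer, and only Angus Fertile heifer 21 exceeded it. Of the 12 Sub-Fertile heifers, 11 were below the Fertile median, and heifer 22 was again the lowest of all. The mean was 1.90 ± 1.002 CPM in Sub-Fertile heifers (SD, n = 12) and 3.05 ± 1.56 CPM in Fertile heifers (SD, n = 10). By breed, GP9 averaged 2.06 ± 1.42 CPM in Holstein Sub-Fertile and 3.09 ± 1.13 CPM in Holstein Fertile heifers, and 1.79 ± 0.673 CPM in Angus Sub-Fertile and 3.003 ± 2.05 CPM in Angus Fertile heifers. Neighbours in the order of these 4 means differed by no more than 1 SD of either group.

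TMCC2 measured 4.19, 10.998, 5.66, 6.22 and 10.6 CPM in Holstein Sub-Fertile heifers 1 to 5, against 5.01, 9.76, 11.8, 12.95 and 18.4 CPM in Holstein Fertile heifers 6 to 10. In Angus it had a lowest value of 4.05, a median of 6.46 and a highest value of 8.32 CPM in Sub-Fertile heifers, against 18.1, 5.87, 8.86, 10.7 and 2.42 CPM in Fertile heifers 18 to 22. Fertile heifers 10 and 18, which form a close pair, stood well above all others, and the groups overlapped in both breeds. Of the 12 Sub-Fertile heifers, 10 were below the Fertile median, and 4 Fertile heifers (8, 9, 10 and 18) exceeded every Sub-Fertile heifer. The mean was 6.74 ± 2.35 CPM in Sub-Fertile heifers (SD, n = 12) and 10.4 ± 5.25 CPM in Fertile heifers (SD, n = 10). By breed, TMCC2 averaged 7.54 ± 3.07 CPM in Holstein Sub-Fertile and 11.6 ± 4.86 CPM in Holstein Fertile heifers, and 6.17 ± 1.72 CPM in Angus Sub-Fertile and 9.19 ± 5.90 CPM in Angus Fertile heifers. Neighbours in the order of these 4 means differed by no more than 1 SD of either group. In these bulk samples, fewer cells of a type and less RNA per cell cannot be told apart for any of the 3 genes.

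**Figure D1:**
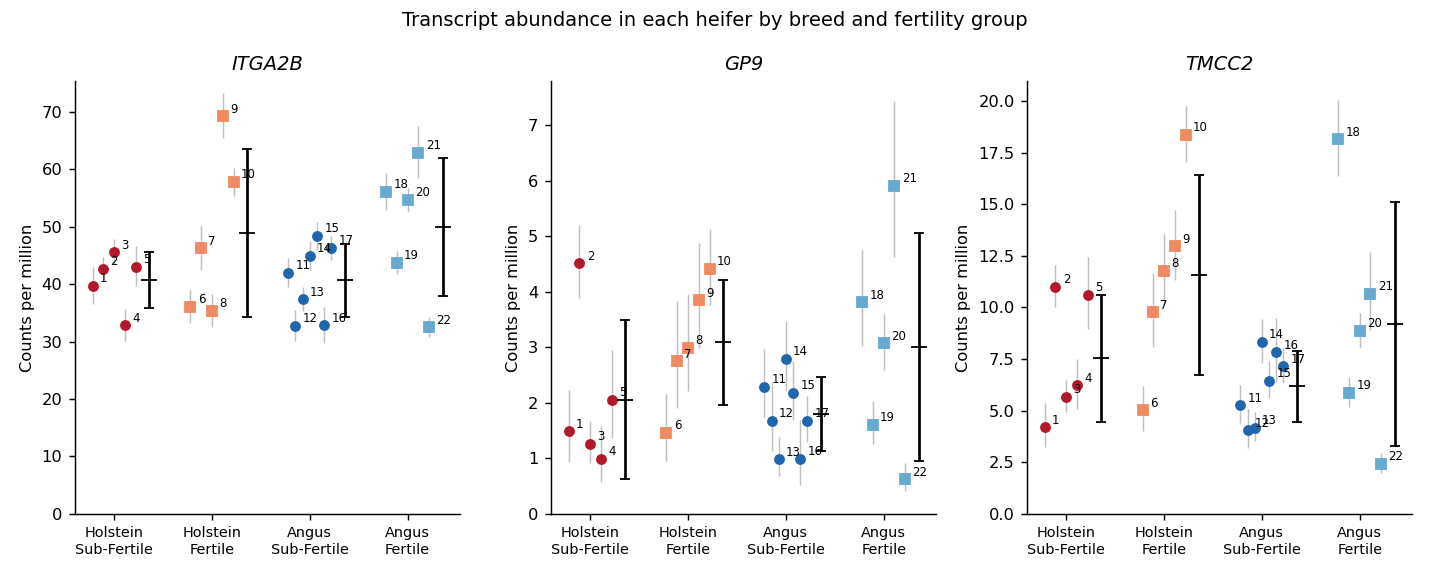
CPM of ITGA2B, GP9 and TMCC2 (y axes, linear from 0) in each heifer by breed and fertility group (x axes). Coloured points are heifers with their numbers, grey bars are exact 95% Poisson intervals of the count, and black bars are the group mean ± SD. Fertile heifers spread over a wider range than Sub-Fertile heifers of their breed except for GP9 in Holstein, and heifer 22 is the lowest of all in each panel.

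The same heifers tended to be high or low in all 3 genes. Fertile heifers 9, 10 and 18 were among the 5 highest for each gene, and Fertile heifer 22 was the lowest for each. Relative to ITGA2B, the other transcripts also varied. The median was 4.12 GP9 counts per 100 ITGA2B counts in Sub-Fertile heifers (range 2.63 to 10.6) and 5.77 in Fertile heifers (1.91 to 9.40). For TMCC2 the median was 14.4 counts per 100 ITGA2B counts in Sub-Fertile heifers (10.6 to 25.7) and 17.8 in Fertile heifers (7.45 to 33.3). For TMCC2, 4 of the 10 Fertile heifers lay outside the Sub-Fertile range, with heifers 8, 10 and 18 above it and heifer 22 below it. For GP9, only heifer 22 did.

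In the model with breed and fertility over all 22 heifers, the log2 fold change of Sub-Fertile over Fertile heifers was -0.28 for ITGA2B (SE 0.122), -0.63 for GP9 (SE 0.318) and -0.59 for TMCC2 (SE 0.267). The fitted levels in Sub-Fertile heifers were 0.824, 0.647 and 0.664 times those in Fertile heifers. The members had been chosen on this contrast, so nothing is read from their p-values. An unadjusted p under 0.05 was reached by 2 of the 3 (ITGA2B and TMCC2), against 2.62% of all genes, or 1.66% counting only genes lower in Sub-Fertile heifers. After Benjamini-Hochberg adjustment, edgeR's quasi-likelihood test called 0 of 13535 genes (0%), and 354 genes had an unadjusted p under 0.05. DESeq2 called 0 genes after adjustment and gave 529 with an unadjusted p under 0.05. The count of 354 moved by over 1.5 times when 1 heifer was left out, to 224 without heifer 3, 141 without heifer 10, 185 without heifer 18, 534 without heifer 21 and 580 without heifer 22.

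Fitted within each breed, the log2 fold changes kept their direction. They were -0.26, -0.56 and -0.62 for ITGA2B, GP9 and TMCC2 in Holstein heifers, and -0.29, -0.68 and -0.56 in Angus heifers. Single heifers moved the values but turned none. TMCC2 was at -0.39 without heifer 18, and at -0.26 without heifers 10 and 18, an alternative chosen after seeing the data. Without those 2 heifers ITGA2B was at -0.22 and GP9 at -0.49.

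With close pairs as a block, in the 16 heifers that formed them, the difference was close to 0 or turned direction. Among the 6 pairs of a Sub-Fertile with a Fertile heifer, the Sub-Fertile heifer was lower in 3 of 6 for ITGA2B, for GP9 and for TMCC2. The blocked log2 fold change of Sub-Fertile over Fertile heifers was 0.00017 for ITGA2B (SE 0.090), 0.021 for GP9 (SE 0.23) and 0.13 for TMCC2 (SE 0.30). The direction seen over 22 heifers was thus not seen between paired heifers, and what paired heifers shared was not tested. Fertile heifers 9 and 21 were in no close pair, and Fertile heifers 10 and 18 were paired with each other. These heifers had the highest ITGA2B levels and no Sub-Fertile partner. The effect of the pairing and that of the heifers left to compare were not separated, since the 16 heifers were not fitted without the block.

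**Figure D2:**
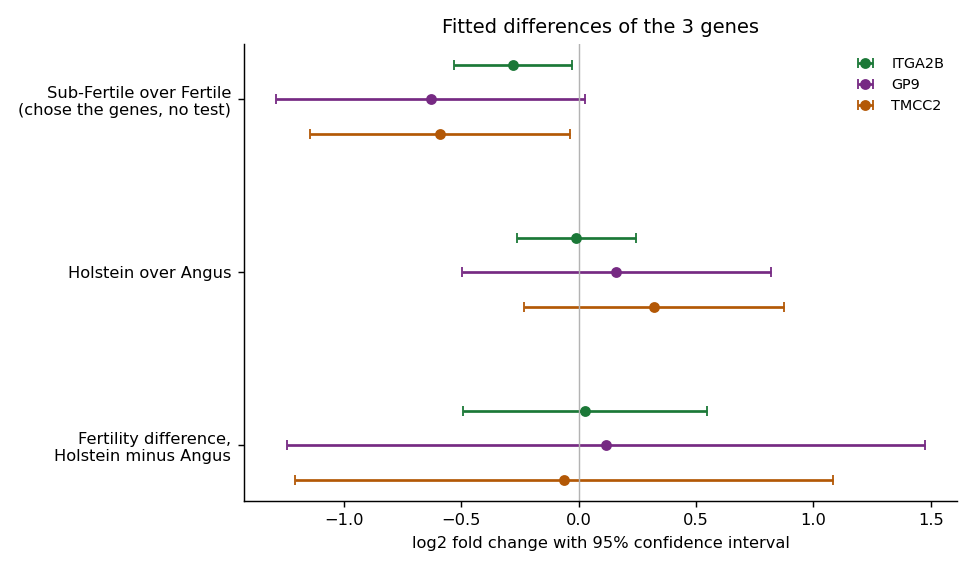
Fitted log2 fold changes (x axis, log scale) with 95% confidence intervals of ITGA2B, GP9 and TMCC2 in 3 comparisons (rows, n = 22 heifers). The upper row is the contrast on which the genes were chosen and is no test. The intervals of the breed difference and of the difference between breeds in the fertility effect all contain 0.

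Levels within close pairs lay nearer to each other than between other heifers. The pairs had been chosen for likeness over 7746 genes above 20 CPM in these data, with ITGA2B among them. The nearer levels are therefore a description with no test. The median ratio of the higher to the lower level within the 8 pairs was 1.13 for ITGA2B, 1.31 for GP9 and 1.23 for TMCC2, against 1.27, 1.64 and 1.63 in the 223 other pairings. In heifers 10 and 18, which were both Fertile but of different breeds, the paired levels were 57.8 and 56.1 CPM for ITGA2B. For TMCC2 they were 18.4 and 18.1 CPM. Not every pair matched. TMCC2 measured 4.05 CPM in Angus Sub-Fertile heifer 12, against 11.8 CPM in its partner, Holstein Fertile heifer 8. It measured 10.6 CPM in Holstein Sub-Fertile heifer 5, against 5.01 CPM in its partner, Holstein Fertile heifer 6. GP9 measured 0.988 CPM in Angus Sub-Fertile heifer 16, against 2.74 CPM in its partner, Holstein Fertile heifer 7.

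**Figure D3:**
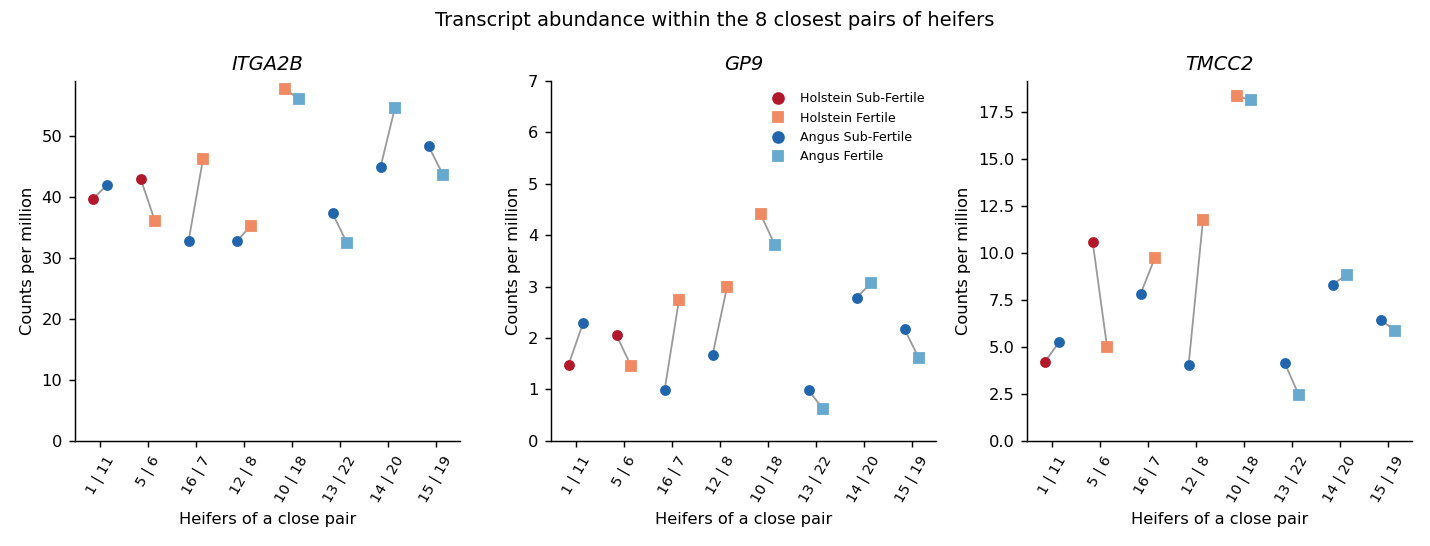
CPM of ITGA2B, GP9 and TMCC2 (y axes, linear from 0) in the 8 close pairs of heifers (x axes, heifer numbers), with a line joining the heifers of a pair. In each panel, 3 of the 6 lines that join a Sub-Fertile to a Fertile heifer rise and 3 fall.

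Breed had not been used to choose the genes, and it was tested in the same fit. ITGA2B averaged 44.8 ± 11.1 CPM in Holstein (SD, n = 10) and 44.5 ± 9.87 CPM in Angus heifers (SD, n = 12). GP9 averaged 2.57 ± 1.33 CPM in Holstein and 2.30 ± 1.47 CPM in Angus heifers. TMCC2 averaged 9.55 ± 4.38 CPM in Holstein and 7.43 ± 4.09 CPM in Angus heifers. These differences were smaller than the spread within each breed, and the breeds overlapped over nearly their whole ranges.

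The log2 fold change of Holstein over Angus was -0.01 for ITGA2B (95% confidence interval -0.26 to 0.24), with an adjusted p of 0.982 in edgeR's quasi-likelihood test. It was 0.16 for GP9 (-0.50 to 0.82, adjusted p 0.865) and 0.32 for TMCC2 (-0.23 to 0.88, adjusted p 0.659) in the same test. None of the 3 genes passed the test, nor had any an unadjusted p under 0.05, against 0% of all genes after adjustment and 10.6% before it. The exact two-sided permutation test over 199584 regroupings within fertility groups gave p = 0.914 for ITGA2B, 0.648 for GP9 and 0.255 for TMCC2 (0.914, 0.914 and 0.765 adjusted over the 3 genes). The intervals leave room for a TMCC2 level in Holstein heifers from slightly below to well above that in Angus heifers, and the data do not show that the breeds are alike. Over all genes, 1440 had an unadjusted p under 0.05 and 0 passed after adjustment, while DESeq2 called 10 genes after adjustment, which did not include ITGA2B, GP9 or TMCC2, and gave 1751 before it. Without heifer 1 the count of 1440 was 2188. Without Holstein Sub-Fertile heifer 2 the GP9 log2 fold change of Holstein over Angus was -0.11 in edgeR. The plain difference of mean log2 CPM, which is not adjusted for the fertility mix of each breed, was 0.08 (permutation test within fertility groups, p = 0.984).

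Whether the fertility difference depended on breed was tested with an interaction term, as the fertility log2 fold change in Holstein minus that in Angus. It was 0.03 for ITGA2B (95% confidence interval -0.49 to 0.55), 0.12 for GP9 (-1.24 to 1.48) and -0.06 for TMCC2 (-1.21 to 1.08). The adjusted p in edgeR's quasi-likelihood test was 0.976 for ITGA2B, 0.958 for GP9 and 0.976 for TMCC2. None of the 3 had an unadjusted p under 0.05, against 10.4% of all genes (1408 genes), and 0 genes (0%) passed after adjustment. DESeq2 called 0 genes for the interaction after adjustment and gave 1657 with an unadjusted p under 0.05. The intervals of all 3 genes were wider than the fertility differences themselves, so a dependence on breed of that size was not detectable with these heifers.

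The 3 genes varied together among heifers of the same group. With the mean of each breed and fertility group taken out of the log2 CPM values, GP9 and TMCC2 correlated at Pearson's r = 0.786 and Spearman's rho = 0.783 over 22 heifers (permutation test within groups, adjusted p 0.000645 and 0.00054). ITGA2B and GP9 correlated at r = 0.740 and rho = 0.719 (permutation test, adjusted p 0.00051 and 0.00109). ITGA2B and TMCC2 correlated at r = 0.653 and rho = 0.648 (permutation test, adjusted p 0.00492 and 0.0033). The adjustment was over these 3 pairs. The r of TMCC2, chosen as a red cell transcript, with the platelet gene GP9 was thus the highest of the 3, and differences between the r values were not tested.

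Without the 2 heifers farthest from the median of the x axis, r was 0.711 for ITGA2B with GP9 (without heifers 8 and 22), 0.595 for ITGA2B with TMCC2 (without the same heifers) and 0.647 for GP9 with TMCC2 (without heifers 2 and 22), and each permutation test still passed. In the 12 Angus heifers alone, r was 0.887 for ITGA2B with GP9, 0.762 for ITGA2B with TMCC2 and 0.759 for GP9 with TMCC2. In the 10 Holstein heifers alone, r was 0.831 for GP9 with TMCC2 (permutation test, adjusted p 0.0142). In Holstein, ITGA2B did not pass with either gene, at r = 0.556 with GP9 and 0.521 with TMCC2 (permutation test, adjusted p 0.102 and 0.169). With the 2 heifers of each close pair averaged, which left 14 values, r was 0.654, 0.626 and 0.805 for ITGA2B with GP9, ITGA2B with TMCC2 and GP9 with TMCC2. The permutation p-values over 22 heifers count paired heifers as independent. None of the genes followed depth, with r between -0.09 and 0.10 against the log2 total count over all heifers. Within the breeds the values had opposite signs, and for GP9 r was 0.51 in Holstein and -0.42 in Angus heifers.

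**Figure D4:**
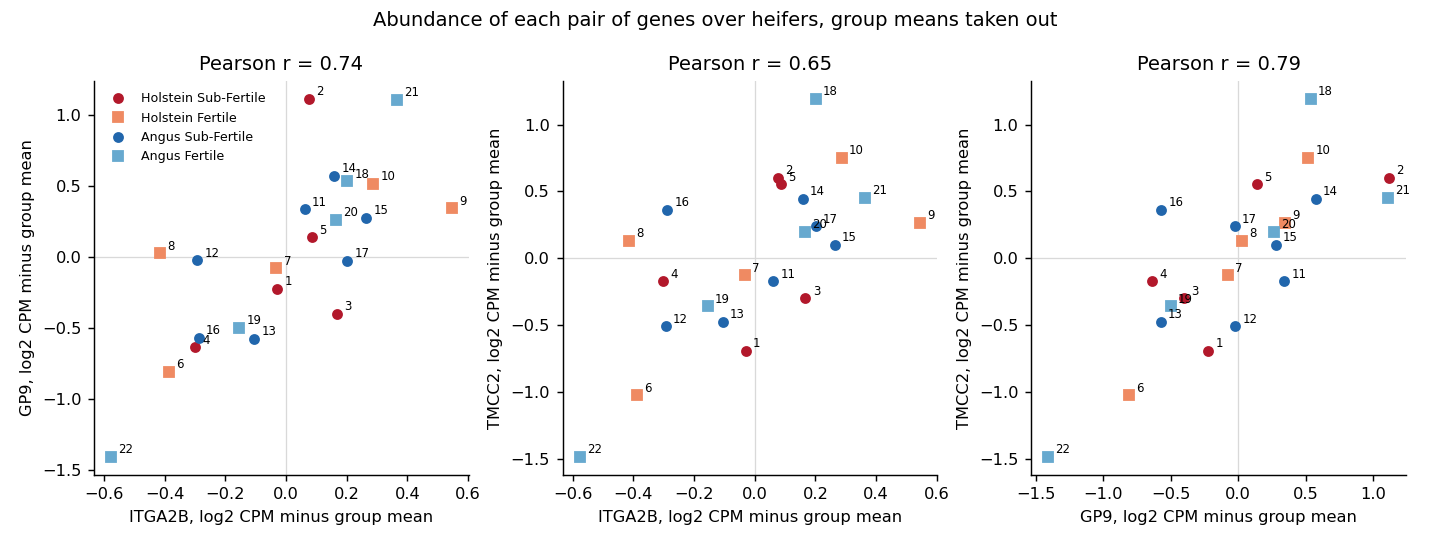
Log2 CPM minus the group mean for each pair of the 3 genes (both axes, log2 units), with 1 point per heifer labelled by its number and coloured by group. Points run from Fertile heifer 22 at the lower left to Sub-Fertile heifer 2 (for GP9 and TMCC2) and Fertile heifers 9, 10, 18 and 21 toward the upper right, with r of 0.74, 0.65 and 0.79.

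Of the other listed genes, 7 had a name and could be set beside the 3 transcripts. Because names were known only for genes with low fertility p-values, their fertility values are descriptions as well. The red cell and megakaryocyte lists gave UROD, uroporphyrinogen decarboxylase of haem synthesis, SLC2A1, the glucose transporter GLUT1 of the human red cell membrane, and LMO2, a partner of blood-forming transcription factors. UROD averaged 36.4 ± 4.38 CPM in Sub-Fertile and 39.9 ± 4.23 CPM in Fertile heifers (SD, n = 12 and 10). SLC2A1 averaged 17.1 ± 2.75 CPM in Sub-Fertile and 19.6 ± 3.33 CPM in Fertile heifers. LMO2 averaged 299 ± 32.3 CPM in Sub-Fertile and 270 ± 47.5 CPM in Fertile heifers, in the opposite direction. All 3 are also transcribed in other blood cells.

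The white cell list gave CSF3R, MMP9, a gelatinase of neutrophil granules, CCR3, the eotaxin receptor of eosinophils, and FCER1A, a chain of the IgE receptor of basophils. CSF3R averaged 320 ± 95.4 CPM in Sub-Fertile (range 203 to 510) and 239 ± 73.5 CPM in Fertile heifers (113 to 342). MMP9 averaged 2.65 ± 1.30 CPM in Sub-Fertile (0.895 to 4.84) and 1.51 ± 1.17 CPM in Fertile heifers (0.366 to 3.73). CCR3 averaged 36.2 ± 10.3 CPM in Sub-Fertile (19.6 to 52.4) and 45.0 ± 14.5 CPM in Fertile heifers (27.2 to 66.7), with its highest values of 66.3 and 66.7 CPM in Fertile heifers 10 and 18. FCER1A averaged 10.8 ± 2.44 CPM in Sub-Fertile (7.26 to 16.98) and 8.94 ± 2.75 CPM in Fertile heifers (5.09 to 12.97). The 2 neutrophil genes and FCER1A were thus higher and CCR3 lower in mean in Sub-Fertile heifers. Only these 4 of the 28 listed white cell markers had a name. Since names came with low fertility p-values, some difference in mean was built into this choice. The part of white cell types in the levels of ITGA2B, GP9 and TMCC2 was not tested. By breed, the log2 fold change of Sub-Fertile over Fertile heifers was 0.79 in Holstein and 0.12 in Angus for CSF3R, and 1.47 in Holstein and 0.16 in Angus for MMP9. For CCR3 it was -0.46 in Holstein and -0.21 in Angus, and for FCER1A 0.47 in Holstein and 0.13 in Angus. None of the 7 genes passed the breed or the interaction test after adjustment, with lowest adjusted p-values in edgeR's quasi-likelihood test of 0.470 for breed (UROD and SLC2A1) and 0.497 for the interaction (CSF3R and MMP9).

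The 3 transcripts were correlated with these 7 genes and with depth in 24 comparisons, with group means taken out, and none passed after adjustment over the 24. UROD went in the same direction as each of the 3, with r = 0.573 for ITGA2B, 0.608 for GP9 and 0.529 for TMCC2 (rho 0.481, 0.592 and 0.420; permutation test, adjusted p 0.058, 0.058 and 0.0804 for r). CSF3R went against GP9 at r = -0.564 and rho = -0.604 (permutation test, adjusted p 0.058 for r). CCR3 went with TMCC2 at r = 0.619 and rho = 0.574 (permutation test, adjusted p 0.058 for r), and MMP9 against it at r = -0.605 and rho = -0.459 (permutation test, adjusted p 0.072 for r). For rho the adjusted p in the permutation test was higher, at 0.256, 0.109 and 0.287 for UROD with ITGA2B, GP9 and TMCC2. It was 0.109 for CSF3R with GP9, 0.137 for CCR3 with TMCC2 and 0.287 for MMP9 with TMCC2. Leaving out the 2 heifers farthest from the median of the member lowered r for UROD to 0.41, 0.36 and 0.30 with ITGA2B, GP9 and TMCC2. It lowered the r of CSF3R with GP9 to -0.47 and that of MMP9 with TMCC2 to -0.28, while CCR3 with TMCC2 stood at 0.73. SLC2A1, LMO2 and FCER1A gave r between -0.40 and 0.15 with the 3 genes. Within breeds the values of SLC2A1, LMO2 and FCER1A spread more widely, as a description with no test. In Holstein heifers their r ran from -0.71 (FCER1A with TMCC2) to 0.51 (SLC2A1 with ITGA2B). In Angus heifers their r ran from -0.29 (LMO2 with TMCC2) to 0.41 (FCER1A with GP9).

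**Figure D5:**
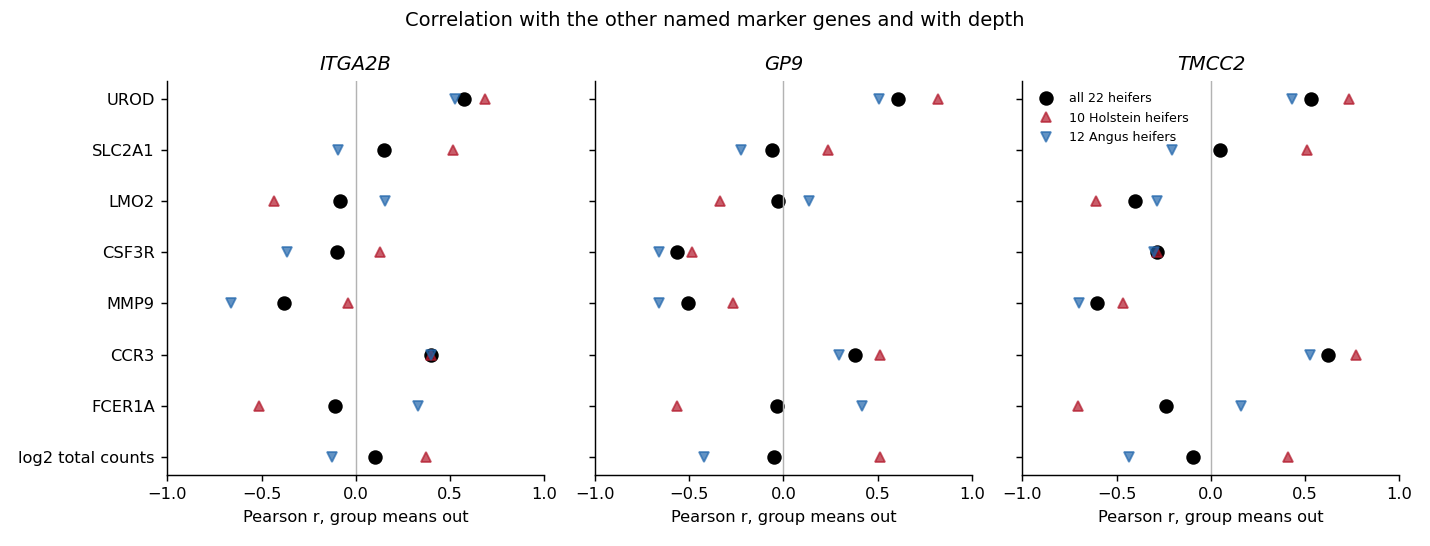
Pearson's r of ITGA2B, GP9 and TMCC2 (panels) with 7 named marker genes and with the log2 total count (rows), group means taken out, over all heifers (black) and within each breed (coloured triangles). UROD lies to the right of 0 in every panel and MMP9 to the left, and the correlation with depth is near 0 over all heifers and has opposite signs in the breeds.

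Among all 13534 other genes tested, those with the most similar profile over the 22 heifers were ranked by Pearson's r of log2 CPM, as a description with no test. For GP9 the nearest gene was ADSL, adenylosuccinate lyase of purine synthesis, at r = 0.931, followed by DOC2A, a calcium-binding protein of vesicle release in neurons, at r = 0.920. TMCC2 ranked 8 for GP9, at r = 0.811. For ITGA2B the named genes among the nearest 10 were DHRS7, a dehydrogenase/reductase (r = 0.771), GP9 (r = 0.770), ADSL (r = 0.738), UQCR11, a subunit of mitochondrial complex III (r = 0.730), and DOC2A (r = 0.728). For TMCC2 the only named gene among the nearest 10 was OSBPL1A, an oxysterol-binding protein (r = 0.877).

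The nearest gene to ITGA2B was the unnamed ENSBTAG00000033727 at r = 0.804, and ENSBTAG00000001420 was among the nearest 10 of all 3 genes. ITGA2B and GP9 shared 4 of their nearest 10 genes, ITGA2B and TMCC2 shared 2, and GP9 and TMCC2 shared 1. Seen from TMCC2, GP9 ranked 17 and ITGA2B ranked 166 of 13534 genes, or 28 and 208 with group means taken out. UROD ranked 1014 (r = 0.448) and SLC2A1 ranked 4986 (r = 0.09), or 611 and 6078 with group means taken out. Both are also transcribed in other blood cells, so their ranks cannot show the cell of origin of TMCC2. Close pairs share part of every such profile, and names were known only for genes with low fertility p-values.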

How the data were processed

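RNA of buffy coat white cells had been sequenced as stranded, poly(A)-selected paired-end libraries. The authors aligned reads to ARS-UCD1.2 with HISAT2, filtered them with SAMtools, removed duplicate reads (a step that can lower the counts of abundant or short transcripts) and deposited raw counts per gene, with versions not given in the sources used here. Gene names came from annotation columns of the study's gene table, whose fold changes and p-values were not used.

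From the deposited counts, CPM were computed on total counts. Differences were fitted with edgeR 4.0.16 (robust quasi-likelihood test, model of breed and fertility, Benjamini-Hochberg adjustment over 13535 genes) in R 4.3.3. DESeq2 1.42.0 was an alternative. Correlations used log2(CPM + 0.5), with 100000 resamples within groups. Close pairs were mutually nearest heifers under 0.5 times the median coefficient over genes above 20 CPM. Exact 95% Poisson intervals cover counting error only. Genes named were the 3 members, listed genes with a name and the 10 nearest genes. The members and lists were chosen with earlier results of these data known. The tests were also run on simulated data without close pairs, and no result given here rests on those runs. Each heifer was 1 sample. TMM scaling, other filters, each breed alone, close pairs as blocks and leaving out each heifer were tried.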

Additional observations from a re-analysis of the deposited data

How the results depend on the processing

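Depth limited GP9 most. In heifer 16, its exact Poisson interval was 0.526 to 1.69 CPM around 0.988 CPM, against 29.8 to 36.1 CPM around 32.8 CPM for ITGA2B. TMM factors of 0.954 to 1.05 moved no group level by more than 1.199%, and no gene passed after adjustment for fertility or the interaction under any alternative run. The breed count after adjustment was 0, or 10 with DESeq2. GP9 was not among genes above 1 CPM in all heifers, so that filter gave it no value.

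With close pairs as a block, the fertility log2 fold change turned to 0.00017 for ITGA2B, 0.021 for GP9 and 0.13 for TMCC2, and the cause was not tested. The breed log2 fold change of ITGA2B turned to 0.000063 with TMM library sizes, 0.012 with no fertility term, 0.0030 in Sub-Fertile heifers alone and 0.12 with close pairs as a block, and lay within 1 SE of 0 except with the block. In Holstein heifers alone, r fell short of the threshold at 0.556 for ITGA2B with GP9 and 0.521 for ITGA2B with TMCC2.

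Leaving out each heifer, the fertility log2 fold change ranged from -0.34 to -0.21 for ITGA2B, -0.86 to -0.44 for GP9 and -0.72 to -0.39 for TMCC2. The breed log2 fold change ranged from -0.077 to 0.033, -0.11 to 0.33 and 0.21 to 0.50 for the same genes. The plain difference of mean log2 CPM between breeds, not adjusted for fertility, ranged from -0.066 to 0.054, 0.067 to 0.30 and 0.25 to 0.49. The interaction ranged from -0.068 to 0.19, -0.44 to 0.39 and -0.47 to 0.19. Among these, the lowest adjusted p was 0.314.

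The number of genes with an unadjusted p under 0.05 for fertility was 354, and 750 with no filter, 1302 in Holstein heifers alone, 638 with close pairs as a block and 124 without heifers 10 and 18. For breed it was 1440, and 684 in Sub-Fertile heifers alone and 238 with close pairs as a block. For the interaction it was 1408, and 2334 without heifers 10 and 18. Leaving out each heifer gave 141 to 580, 1019 to 2188 and 959 to 2010. No paired analysis by replicate number was possible because the labels give the heifers no shared numbers. Leaving out heifers 10 and 18, averaging close pairs for the correlations, and the alternatives for correlations with marker genes were chosen after seeing the data.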
